A study of Mus musculus with 8 samples.

Results

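The insulin-like growth factor (IGF) genes described here are a ligand (Igf1), both receptors (Igf1r and Insr), the receptor substrates Irs1 and Irs2, and the binding proteins Igfbp2, Igfbp3, Igfbp4, Igfbp5 and Igfbp7. They were chosen by name, through the RefSeq accession that the array gives for each probe. All 10 were on the array, out of 20641 genes that could be named, and 17 of 55681 probes matched them. The accessions were NM_010512 for Igf1, NM_010513 for Igf1r, NM_010568 for Insr, NM_010570 for Irs1 and NM_001081212 for Irs2. Those of the binding proteins were NM_008342 for Igfbp2, NM_008343 for Igfbp3, NM_010517 for Igfbp4, NM_010518 for Igfbp5 and NM_001159518 for Igfbp7. Gene expression was measured in primary spheres. The cells came from TH-MYCN hemizygote (TH-MYCN+/-) mice of the 129+Ter/SvJcl background, aged 3 weeks, and were taken from the superior mesenteric ganglion. This transgene places human MYCN under a tyrosine hydroxylase promoter and gives rise to neuroblastoma from sympathetic cells. The ganglion cells of each animal were divided between RA (-) medium, without retinoic acid, and RA (+) medium, with retinoic acid, and spheres were collected after 8 days. There were 4 RA (-) and 4 RA (+) arrays, 1 of each from each of 4 animals. Spheres of both media carried the transgene, and no wild-type spheres were analysed here.

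IGF ligands bind the receptor tyrosine kinase encoded by Igf1r. The activated receptor phosphorylates the docking proteins Irs1 and Irs2, which recruit PI3-kinase and so feed the AKT and mTOR pathways of growth and survival. IGF-binding proteins hold the ligands in serum and around cells, and proteases that cut them release the ligand. In neuroblastoma and in developing sympathetic neurons, IGF signalling through Igf1r is known as a growth and survival signal.

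In RA (-) spheres the binding proteins Igfbp2 and Igfbp3 and the ligand Igf1 were higher than in RA (+) spheres. The receptor Igf1r and the substrate Irs2 were lower, and so was Insr, by 1 of its 3 probes. The binding protein Igfbp5 was also called lower, but only 1 of its RA (-) arrays was well above background. Igfbp2 had the largest difference, with a log2 change of 2.77 (SE 0.29, n = 4 animals). Igf1r was 2.21-fold lower (log2 change −1.14, SE 0.09) and Irs2 2.05-fold lower (−1.04, SE 0.10). Irs1 and Igfbp4 did not pass the test, and Igfbp7 was well above background on none of the arrays.

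The test was a limma fit across all 13539 tested genes with the animal as a block, and genes with a Benjamini-Hochberg adjusted p under 0.05 are called changed. Well above background means that the scanner software flagged the spot so, and genes were tested where this held on at least 4 of the 8 arrays, as it did for 9 members and on all 8 arrays for 6. Of these 9 members, 7 were called, 3 higher and 4 lower in RA (-) medium. The 4 include Igfbp5, which was well above background on only 1 RA (-) array. Among all tested genes 64.3% were called, 35.9% higher and 28.4% lower, so a call by itself was common in these data. The balance of directions depended on the scaling: 4862 genes were higher and 3841 lower here, but 3965 higher and 4596 lower with the 75th percentile of detected probes. A change of at least 1 log2 unit, which 18.2% of all tested genes had with a call, was found for 5 of the 9 members. These include Igfbp3 and Igfbp5, dim probes whose changes were 0.66 and −0.47 under normexp with quantile normalization. The members' median log2 change was −0.13, beside 0.07 for all tested genes. The 4 RA (-) arrays did not overlap the 4 RA (+) arrays for 4 members (Igf1r, Irs2, Igfbp2 and Igfbp3), against 53.1% of all tested genes. Ranked by absolute change, Igfbp2 was above 97.7% of tested genes. The members were chosen with earlier results of these data known, so their counts beside these shares are a description and no test.

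Sequences are shown for the neighbouring genes Igfbp2 and Igfbp5, which had the largest opposite changes among the members, and for Igf1r and Irs2, whose changes were close in size. Each is a promoter window of 300 bases from RefSeq, assembly GRCm38.p6, on the strand of the gene. The capitals mark matches, on either strand, to AGGTCA or AGTTCA (hexamers bound by nuclear receptors such as the retinoic acid receptors), CACGTG (the E-box bound by MYC proteins) or GGGCGG (the GC box). These windows lie at chr1:72824230-72824529 on the plus strand for Igfbp2 (the first of 2 windows listed), chr1:72874816-72875115 on the minus strand for Igfbp5, chr7:67952007-67952306 on the plus strand for Igf1r, and chr8:11008880-11009179 on the minus strand for Irs2.
Igfbp2: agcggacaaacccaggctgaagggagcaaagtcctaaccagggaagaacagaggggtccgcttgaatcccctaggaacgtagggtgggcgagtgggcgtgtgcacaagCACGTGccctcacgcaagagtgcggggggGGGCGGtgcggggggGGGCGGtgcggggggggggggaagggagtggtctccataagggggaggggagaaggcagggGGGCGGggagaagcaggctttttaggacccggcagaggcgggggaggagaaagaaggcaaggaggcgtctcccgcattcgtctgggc
Igfbp5: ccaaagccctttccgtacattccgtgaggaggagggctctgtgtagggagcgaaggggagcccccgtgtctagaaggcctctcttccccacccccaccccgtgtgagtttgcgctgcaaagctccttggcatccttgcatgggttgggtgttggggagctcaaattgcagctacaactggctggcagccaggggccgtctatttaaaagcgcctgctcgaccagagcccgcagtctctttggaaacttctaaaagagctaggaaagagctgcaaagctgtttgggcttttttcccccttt
Igf1r: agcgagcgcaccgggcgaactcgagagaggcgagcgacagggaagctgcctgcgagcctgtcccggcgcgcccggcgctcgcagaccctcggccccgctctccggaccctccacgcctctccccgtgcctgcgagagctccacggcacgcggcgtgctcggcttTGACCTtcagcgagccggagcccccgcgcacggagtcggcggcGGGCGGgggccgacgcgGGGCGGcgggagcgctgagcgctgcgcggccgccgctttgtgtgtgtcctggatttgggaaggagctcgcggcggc
Irs2: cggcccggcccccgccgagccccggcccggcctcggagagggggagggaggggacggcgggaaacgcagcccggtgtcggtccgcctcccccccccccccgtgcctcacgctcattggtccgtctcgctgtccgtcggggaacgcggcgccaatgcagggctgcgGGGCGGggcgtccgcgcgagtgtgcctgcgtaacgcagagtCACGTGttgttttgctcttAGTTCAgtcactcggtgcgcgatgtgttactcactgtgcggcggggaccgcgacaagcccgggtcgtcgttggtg

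The Igfbp2 window held 1 CACGTG and 3 GGGCGG, and the Igfbp5 window held none of the searched hexamers. In the Igf1r window 1 AGGTCA was found, read on the opposite strand, with 2 GGGCGG. The Irs2 window held 1 AGTTCA, 1 CACGTG and 1 GGGCGG. Over all 32851 windows of the table, 16.3% held AGGTCA, 14% AGTTCA, 7.15% CACGTG and 35.7% GGGCGG. A match is a description of the letters and was not tested as a binding site. The GC content was 76% in the Igf1r window, 72% in the Irs2 window, 67% in the Igfbp2 window and 56.3% in the Igfbp5 window, against a median of 52.7% over all windows. Of the other members, Igf1 had 1 AGGTCA, Irs1 had 1 CACGTG and 2 GGGCGG, Igfbp7 had 4 GGGCGG, and Igfbp3, Igfbp4 and the second window of Igfbp2 had none. No window of Insr was used here.

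Levels below are log2 of the processed signal relative to the 75th percentile of the same array, given for replicates 1 to 4 in turn, and each animal has the number of its replicate. A level of 0 is the 75th percentile, and levels of different probes are not set against each other. The spheres were measured in bulk, so fewer cells of a type and less RNA per cell cannot be told apart.

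Igf1 encodes the ligand insulin-like growth factor 1. Its brightest probe stood at −3.85, −3.02, −3.19 and −3.33 on the RA (-) arrays and at −5.16, −4.41, −3.63 and −4.07 on the RA (+) arrays. It was higher without RA in all 4 animals, while the ranges of the media overlapped. The log2 change was 0.97 (SE 0.18, limma adjusted p = 0.00473), a 1.96-fold increase, and the probe was well above background on 4 RA (-) and 3 RA (+) arrays. This is a dim probe: the processed signal was 20.5 to 29.9 intensity units on RA (-) arrays and 8.40 to 18.7 on RA (+) arrays. Normexp background correction with quantile normalization, which adds an offset of 50 units to every spot, gave a change of 0.24.

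Igf1 had 3 more probes. A pair of them, each well above background on 3 RA (-) arrays and 1 RA (+) array, had changes of 0.70 and 0.94, with limma adjusted p of 0.117 and 0.0358 in the fit over all probes. In that fit 57.7% of the 29358 probes tested were called. The fourth probe, well above background on 3 arrays in all, was not tested and differed by 0.25. Animal 4 went the other way for 2 of these 3 probes.

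**Figure D1:**
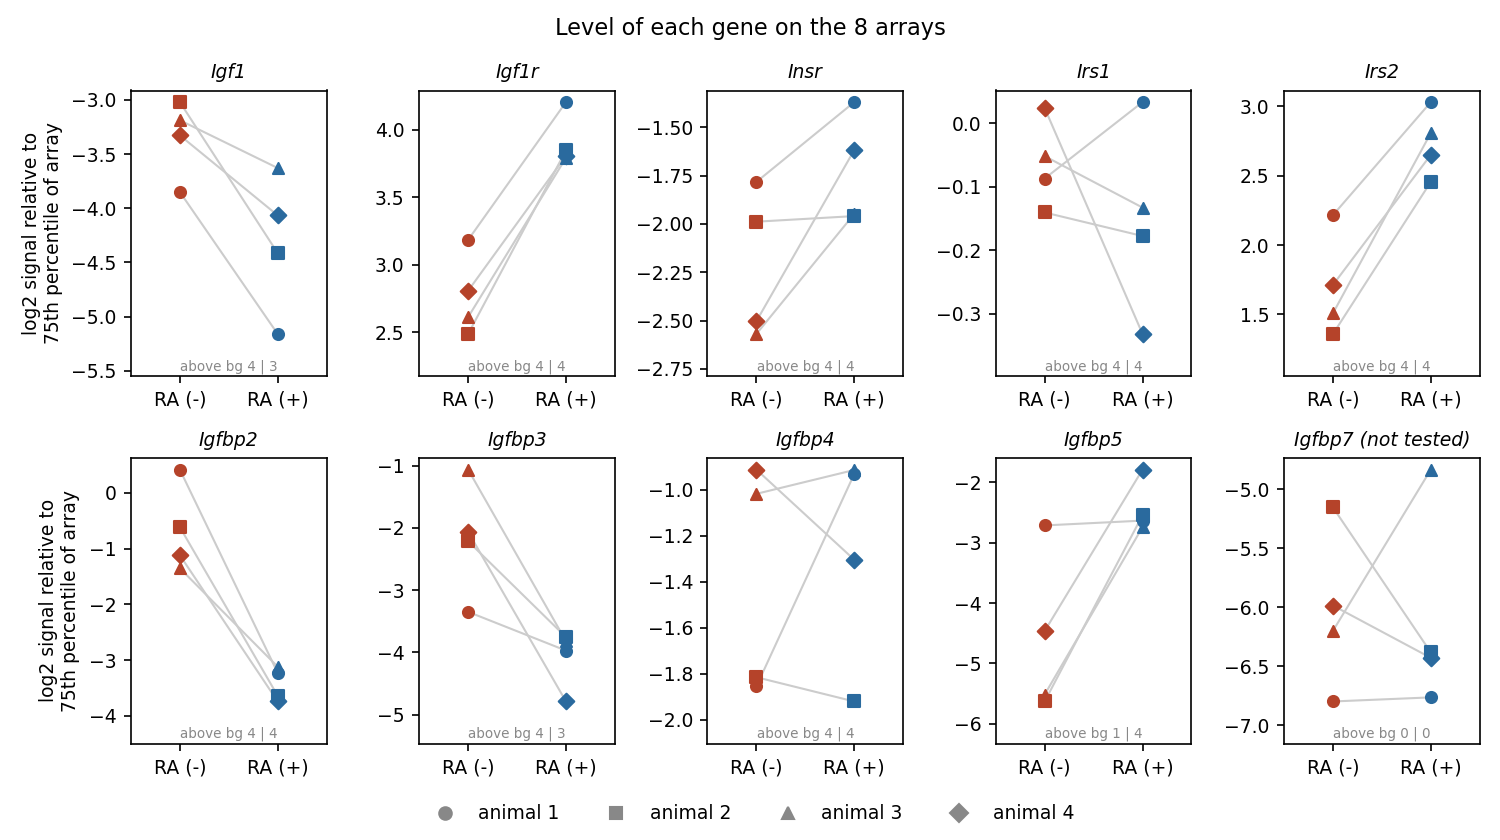
Level of each gene by its brightest probe in RA (-) and RA (+) spheres, as log2 signal with the array's 75th percentile set to 0, with a line joining the 2 arrays of an animal and the number of arrays well above background under each panel (RA (-) first). The axes differ between panels. Igf1r, Irs2, Igfbp2 and Igfbp3 show no overlap between media, and Igfbp5 of animal 1 has nearly the same level in both.

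Igf1r, the receptor for IGF ligands, was well above background on all 8 arrays. It stood at 3.18, 2.49, 2.61 and 2.81 without RA, against 4.20, 3.85, 3.79 and 3.81 with RA. Every RA (-) array lay below every RA (+) array. The differences within animals 1 to 3 were −1.02, −1.36 and −1.18, and that of animal 4 was close to that of animal 1. The change of −1.14 had a 95% interval of −1.36 to −0.92 (limma adjusted p = 0.000229). Over the 13 alternative settings the change was −1.27 to −1.05 and was called each time.

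Insr encodes the insulin receptor, which can also form hybrids with the IGF receptor. All 3 of its probes were well above background on the 8 arrays, and they differed. The brightest probe on average stood at −1.78, −1.99, −2.57 and −2.50 without RA and at −1.37, −1.96, −1.95 and −1.62 with RA. It was lower without RA in all 4 animals, by 0.03 in animal 2 and 0.89 in animal 4, and the media overlapped. Its change was −0.49 (SE 0.15, limma adjusted p = 0.0289). The other probes had changes of −0.18 and −0.04, with limma adjusted p of 0.125 and 0.821 in the fit over all probes. The call of Insr was also lost without animal 1 (−0.51, limma adjusted p = 0.0617), animal 3 (−0.44, 0.0951) or animal 4 (−0.35, 0.0929), and with the mean of its probes (−0.23, 0.0763).

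Irs1 and Irs2 encode docking proteins for both receptors, and of the pair only Irs2 was called. Irs2 stood at 2.22, 1.36, 1.51 and 1.71 on RA (-) arrays and at 3.03, 2.46, 2.81 and 2.65 on RA (+) arrays. All RA (-) values were below all RA (+) values, with differences of −0.81, −1.10, −1.30 and −0.94 within animals. The change of −1.04 had a 95% interval of −1.28 to −0.79 (limma adjusted p = 0.000451), and was −1.15 to −0.94 over the alternative settings, called each time. For Irs1 the levels ran from −0.14 to 0.02 without RA and from −0.33 to 0.03 with RA. Its change of 0.09 had a 95% interval of −0.15 to 0.33 (limma adjusted p = 0.457), higher without RA in 3 of 4 animals. The difference in response between Irs1 and Irs2 was not tested. A second Irs1 probe was left out because its spot was an outlier on RA (+) array 2, at 10.34. On the other arrays it stood at −3.75 to −3.26 without RA and −3.81 to −2.91 with RA.

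**Figure D2:**
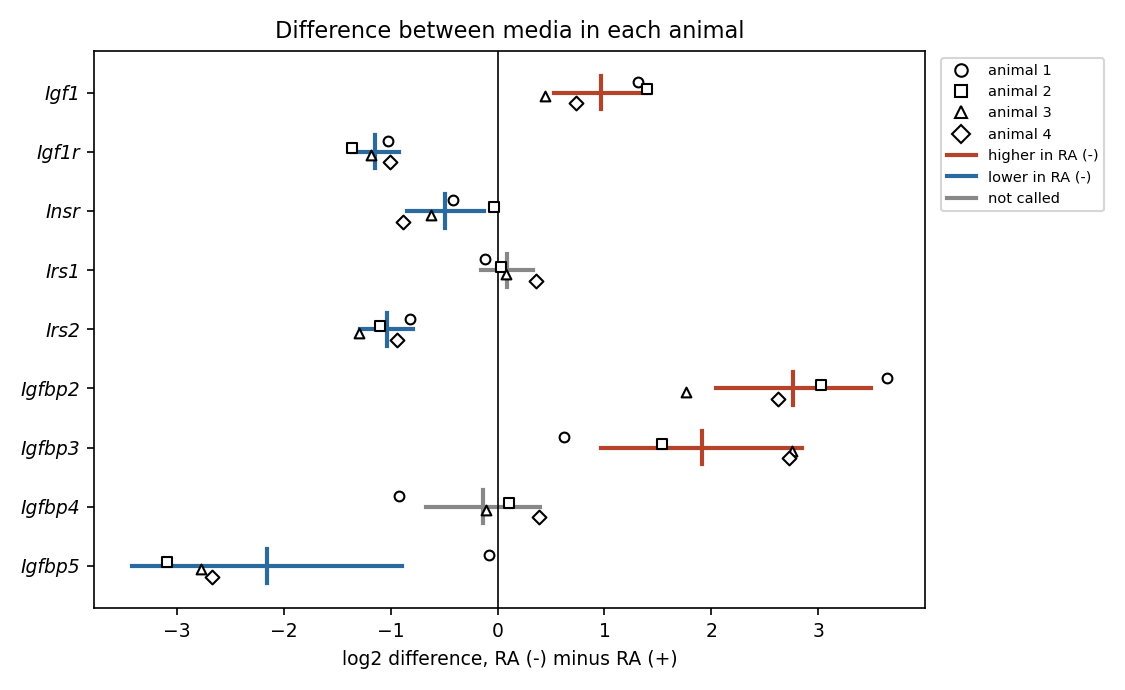
Difference between media for each tested gene, as log2 RA (-) minus RA (+). Points are the 4 animals, the vertical mark is the fitted change and the horizontal line its 95% interval; the points of Igf1r and Irs2 lie between −1.36 and −0.81, and those of Igfbp5 run from −3.09 to −0.08.

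Igfbp2 encodes a binding protein with a preference for IGF2 that is made widely in fetal tissue and the nervous system. Its brighter probe stood at 0.42, −0.61, −1.35 and −1.12 in RA (-) spheres, against −3.23, −3.64, −3.12 and −3.74 in RA (+) spheres. No RA (-) array came within the range of the RA (+) arrays. The differences were 3.65, 3.03, 1.77 and 2.62 in animals 1 to 4 (limma adjusted p = 0.000614, 95% interval 2.04 to 3.49). A second probe gave a change of 2.27 (SE 0.21, limma adjusted p = 0.000511 over all probes). Both probes were well above background on all 8 arrays. With RA the brighter probe was dim, at 22.3 to 32.1 intensity units. Under normexp with quantile normalization the change was 1.38.

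Igfbp3 encodes the main carrier of IGFs in serum. It stood at −3.35, −2.21, −1.06 and −2.06 without RA and at −3.97, −3.75, −3.82 and −4.79 with RA. The media did not overlap, though RA (-) array 1, the lowest of its medium, lay close to the highest RA (+) array. The change was 1.91 (SE 0.38, limma adjusted p = 0.00633), a 3.76-fold increase, with 0.62 in animal 1 and 2.76 in animal 3. The probe was well above background on 4 RA (-) and 3 RA (+) arrays. Under normexp with quantile normalization the change was 0.66.

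Igfbp5 encodes a binding protein that also attaches to extracellular matrix. It was at −2.71, −5.63, −5.51 and −4.46 on the RA (-) arrays and at −2.63, −2.54, −2.74 and −1.79 on the RA (+) arrays. Of the RA (-) arrays, only array 1 was well above background, and it lay among the RA (+) levels. The other RA (-) arrays lay below every RA (+) array. The change was −2.15 (SE 0.51, limma adjusted p = 0.0123) with a 95% interval of −3.42 to −0.89. Since 3 RA (-) arrays were not well above background, its size is not exact, and it was −0.47 under normexp with quantile normalization. The probe met the filter through its 4 RA (+) arrays, with 1 RA (-) array besides, so its call is not taken as support. Without animal 1 the change was −2.84 (limma adjusted p = 0.000196), and without animal 3 it was −1.95 and not called (0.0561).

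RA (-) array 1 also stood apart over all genes: on the first principal component, with 81.7% of the variance, it lay at 42.3, the other RA (-) arrays at 59.5 to 66.2 and the RA (+) arrays at −61.2 to −52.3. Its part in the Igfbp2, Igfbp3 and Igfbp5 differences of animal 1 was not tested. Without animal 1, the change of Igfbp2 was 2.47 and that of Igfbp3 was 2.34, both called, and 3 members were called higher and 3 lower.

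Igfbp4 encodes a binding protein that restrains IGF action until it is cut by the protease encoded by Pappa. Its levels ran from −1.86 to −0.91 without RA and from −1.92 to −0.91 with RA, almost the same range. The change of −0.13 (SE 0.22) had a 95% interval of −0.67 to 0.40 (limma adjusted p = 0.616), with 2 animals in each direction, and was 0.13 without animal 1. Igfbp7 encodes a secreted protein with low affinity for IGFs. Its only probe was well above background on none of the arrays and stood at −5.15 at most without RA, and at −6.76 to −4.83 with RA.

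**Figure D3:**
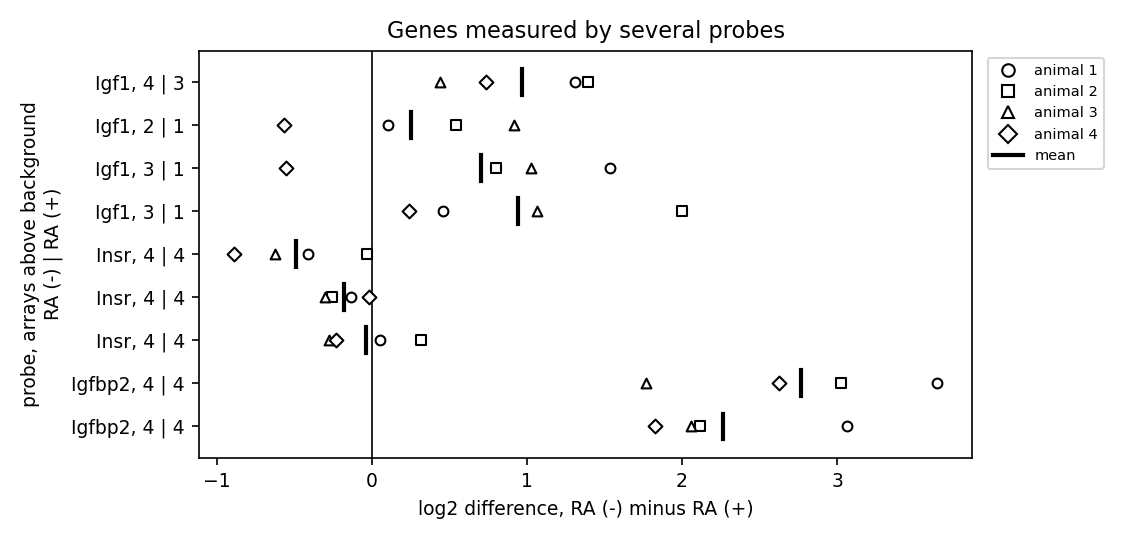
Difference between media for each probe of the genes with several probes, as log2 RA (-) minus RA (+), with the number of arrays well above background beside the name (RA (-) first). Points are the 4 animals and bars their mean. Both Igfbp2 probes lie above 0 in all animals, while the 3 Insr probes have means of −0.49, −0.18 and −0.04.

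The order of protein-coding genes in the RefSeq table places Igfbp2 and Igfbp5 next to each other on chromosome 1, on opposite strands, and they changed in opposite directions (2.77 and −2.15). Igfbp3 and Igfbp1 are neighbours on chromosome 11, and both rose (1.91 and 1.53). The neighbour of Igfbp3 on the other side, Tns3, was also called higher. Next to Igfbp2, Rpl37a rose by 0.46. Whether neighbouring genes change together more often than others was not tested.

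The genes most like each member over the 8 arrays were taken as those with the smallest root mean square difference after each gene was centred on its own mean. For Igfbp2 they were Adgrg1, Thsd7a and Magel2, with differences of 0.23, 0.32 and 0.33 log2 units. Adgrg1, an adhesion receptor of the G protein-coupled family, had a change of 2.87. For the other members the single nearest genes were Med9os (0.19) for Igf1, Ear6 (0.07) for Igf1r, 5031439G07Rik (0.12) for Insr, Cym (0.06) for Irs1, Plec (0.05) for Irs2, Pla2g7 (0.32) for Igfbp3, Tmem74 (0.18) for Igfbp4 and D130043K22Rik (0.43) for Igfbp5. The size of this difference also depends on how much a member itself varies over the arrays, so the sizes are not compared between members.

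The rest of IGF and insulin signalling was described with a list of 56 genes, all on the array. Of the 49 tested, 10 were called higher (20.4%) and 21 lower (42.9%) in RA (-) spheres, with a median change of −0.21. The 21 include Insrr and Pappa2, which passed the filter only through the RA (+) arrays, so their calls are not taken as support. The background shares of all tested genes were 35.9% and 28.4%, and the list as a whole, with 63.3% called, was near the background of 64.3%. With the 75th percentile of detected probes 8 of the list were higher and 25 lower, beside 3965 and 4596 of all tested genes. Under spike-in scaling 5 were higher and 12 lower, beside 2311 and 1870 of all tested genes. With all 8 arrays required to be well above background, 41 were tested, 11 higher and 17 lower, beside 4841 and 3326 of all tested genes.

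Among the ligands, Igf2 was lower without RA. It stood at −3.11, −4.77, −3.67 and −3.38 on RA (-) arrays and at −1.91, −3.45, −1.25 and −2.49 on RA (+) arrays. It fell in all 4 animals although the ranges overlapped, with a change of −1.45 (SE 0.25, limma adjusted p = 0.00360), and it was well above background on 2 RA (-) arrays. Under normexp with quantile normalization its change was −0.48. The insulin gene Ins2 had a change of −0.38 (limma adjusted p = 0.0222), which was not called without animals 2, 3 or 4 and under some other settings (limma adjusted p up to 0.502). Ins1 was not tested.

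Of the receptors, Insrr, a relative of the insulin receptor, was well above background on none of the RA (-) arrays. It stood at −4.73 ± 0.49 in RA (-) and −1.87 ± 0.43 in RA (+) spheres (SD, n = 4), at least 5.31-fold lower without RA. Insrr passed the filter only through the 4 RA (+) arrays, where it was high, so its call is not taken as support. A bound of this kind sets the mean of the brighter medium against the lowest signals that were well above background in the other. Igf2r, which removes Igf2 from the cell surface, had a change of −0.21 (SE 0.12, limma adjusted p = 0.172). Ghr, the growth hormone receptor, had 0.37 by its brighter probe (limma adjusted p = 0.0743). Its 2 tested probes had changes of 0.37 and 1.19, of which 1 was called. The mean of its probes gave 0.78 (limma adjusted p = 0.000467).

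Other binding proteins included Igfbpl1, a protein related to the IGF-binding family, with a change of 2.74. It stood at 0.17, 0.20, −0.37 and 0.16 without RA and at −2.33, −3.24, −2.61 and −2.63 with RA. The media did not overlap (SE 0.20, limma adjusted p = 0.000191), and the change was 1.74 under normexp with quantile normalization. Igfbp1 also rose without overlap, at −2.01, −1.81, −1.66 and −1.54 in RA (-) and −2.84, −3.43, −3.83 and −3.04 in RA (+) spheres (change 1.53, limma adjusted p = 0.00160; 0.61 under normexp with quantile normalization). Igfbp6 varied widely between animals, from −5.02 to −2.05 without RA and from −4.97 to −1.92 with RA. Its change of 0.25 had an SE of 0.49 (limma adjusted p = 0.679) and was higher in 1 of 4 animals.

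Of the proteases that cut binding proteins, 2 of the 3 tested were called lower, beside 28.4% of all tested genes. Pappa2, which cuts Igfbp3 and Igfbp5, was well above background on none of the RA (-) arrays. It stood at −5.39 ± 0.78 in RA (-) and −2.02 ± 0.63 in RA (+) spheres (SD, n = 4), at least 4.81-fold lower. Like Insrr, it passed the filter only through the RA (+) arrays, so its call is not taken as support. The log2 changes of Insrr and Pappa2 under normexp with quantile normalization were −0.82 and −0.92, each less than a 2-fold fall. That setting adds an offset of 50 units to every spot, which makes the changes of dim probes smaller, so it cannot test the bounds. The bounds of these genes are given only for the processed signal as scaled here. Htra1, a secreted serine protease, was well above background on 2 RA (-) arrays, and the media overlapped. It fell by 1.62 (SE 0.25, limma adjusted p = 0.00243), a size that is not exact, or by 0.44 under normexp with quantile normalization. Adam12 had a change of −0.01 (limma adjusted p = 0.945). Pappa and its inhibitors Stc1 and Stc2 were not tested.

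Adaptors and inhibitors of the receptors went both ways, with 3 of 14 called higher and 8 lower (78.6% called, beside 64.3% of all tested genes). Grb10, an adaptor that inhibits the insulin and IGF receptors, stood at 2.37 ± 0.31 in RA (-) and 0.87 ± 0.41 in RA (+) spheres and was 2.83-fold higher (SE 0.14 on the log2 scale, limma adjusted p = 0.000423). Socs1 rose by 1.56, while Socs2 and Socs3 fell by 1.78 and 1.87; all encode suppressors of cytokine signalling. Under normexp with quantile normalization the sizes for these genes were 1.34, 1.07, −1.74 and −1.59. Among the other called genes was Grb14, a relative of Grb10, with a change of −1.38.

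Of 13 genes of the PI3-kinase and AKT branch, 2 were called higher and 6 lower (61.5% called, near the 64.3% of all tested genes). Pik3cd, a catalytic subunit typical of white blood cells, had a change of −2.52 (SE 0.24), with −2.65 to −2.24 over its probes. Immune markers are given below, and their part in this change was not tested. Inppl1, an inositol phosphatase that opposes the pathway, fell by 1.19 and Pik3r3, a regulatory subunit, by 0.90. Akt1 had a change of −0.09 (limma adjusted p = 0.302), but −0.37 and −0.39, both called, under the 2 quantile settings. Of 11 mTOR and FOXO genes, 3 were called higher and 2 lower (45.5% called, beside 64.3% of all tested genes). Rps6kb1, a kinase downstream of mTOR, rose by 0.70 and Rheb, which activates mTOR, by 0.52, a call that was lost under spike-in scaling. Foxo1, a transcription factor held in check by AKT, fell by 0.94, or by 0.51 under normexp with quantile normalization.

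**Figure D4:**
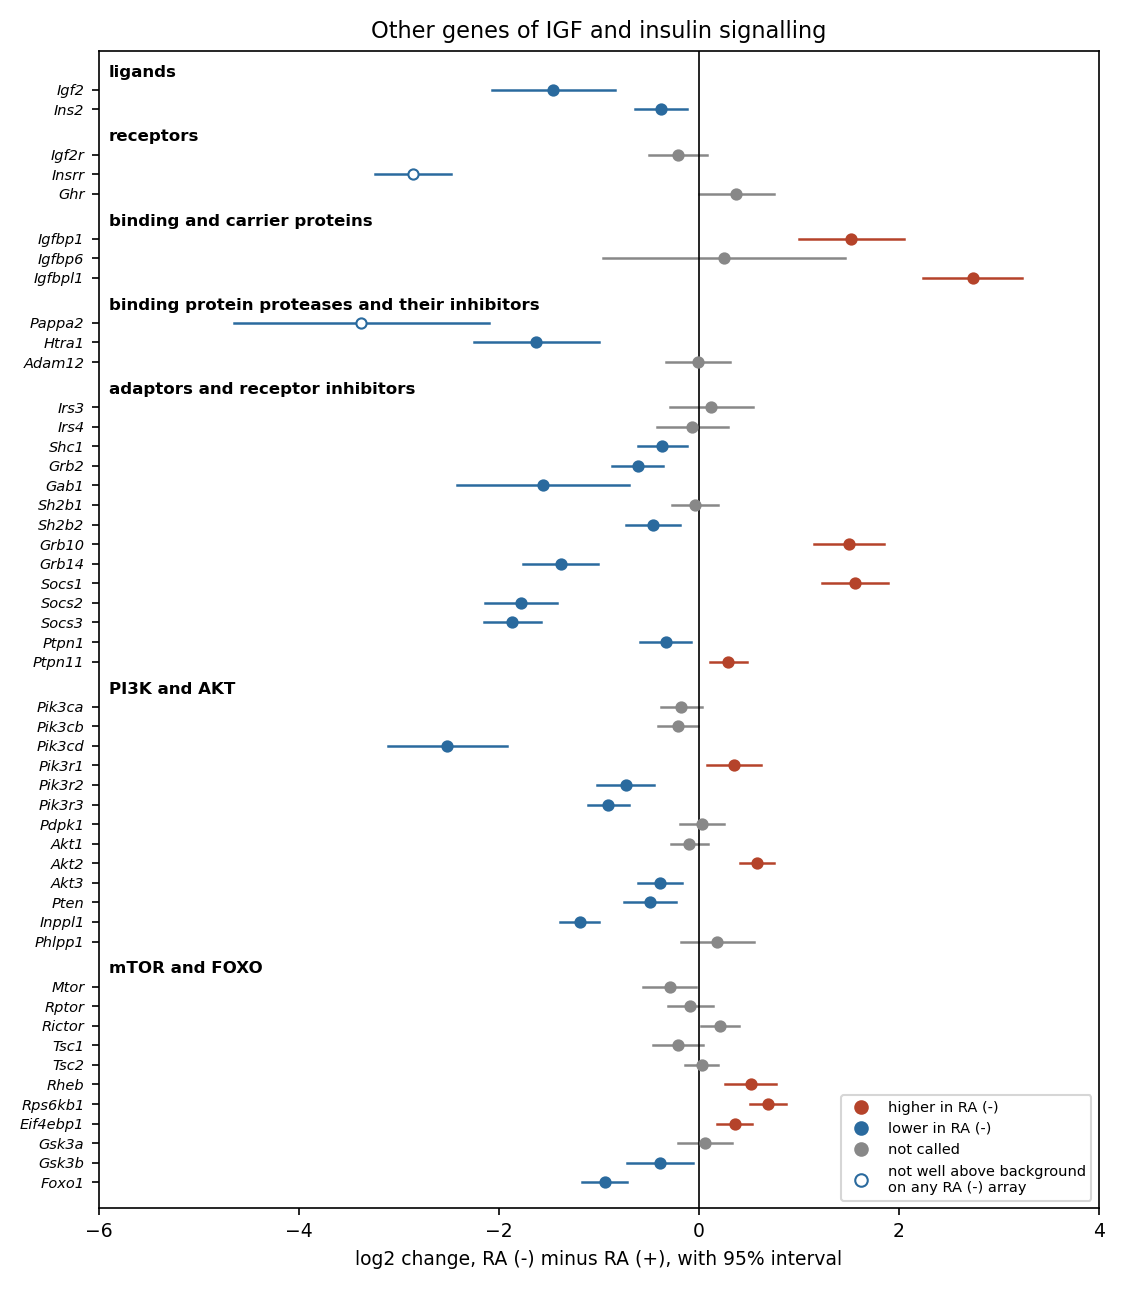
Change of the 49 tested genes of the wider pathway by role, as log2 RA (-) minus RA (+) with the 95% interval. Open circles mark Insrr and Pappa2, well above background on none of the RA (-) arrays. In this scaling 21 genes, Insrr and Pappa2 among them, are called lower and 10 higher in RA (-) spheres, and 18 are not called.

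Markers of sympathetic cells were measured on all arrays: the 11 listed genes, among them Th and Dbh, were all tested and averaged 5.02 to 5.19 on RA (-) arrays and 4.74 to 5.02 on RA (+) arrays. Single markers went both ways, with 3 called higher and 4 lower (63.6% called, near the 64.3% of all tested genes). Th, the enzyme that begins catecholamine synthesis, stood at 7.83 ± 0.10 in RA (-) and 4.25 ± 0.31 in RA (+) spheres (SD, n = 4), and Isl1 also rose, by 2.00. Dbh, a later enzyme of that pathway, fell by 1.54. The part of these shifts in the changes of the IGF genes was not tested. Other cell types that make IGF-binding proteins were checked in the same way. Of 10 fibroblast markers 7 were tested, with 1 called higher and 4 lower (71.4% called, beside 64.3% of all tested genes). Among those lower, Dcn passed the filter only through the RA (+) arrays. The mean of the 7, Dcn included, ran from −1.68 to −1.17 without RA and from −1.07 to −0.39 with RA. Lum and Pdgfra were well above background on no array. Of 7 immune markers 4 were tested and 3 were called lower (75% called, beside 64.3% of all tested genes). Of these, Aif1 and Adgre1 passed the filter only through the RA (+) arrays, and Itgam was called by 1 of its 2 tested probes. Csf1r had a change of 0.02 and was not called. The means of the 4 were −2.16 to −1.72 without RA and −0.86 to −0.26 with RA. These means hold Aif1 and Adgre1, with changes of −2.58 and −2.26, beside −0.51 for Itgam, and are not taken as support. Ptprc and Cd14 were well above background on no array. The means for 4 endothelial markers ran from −1.54 to −1.22 without RA and −1.40 to −1.04 with RA, for 6 of Schwann and satellite glia from −2.13 to −1.51 and −1.70 to −1.46, and for 3 of pericytes and smooth muscle from −2.42 to −1.98 and −2.26 to −1.69. Called lower were 1 of the 6 glial markers, Fabp7 (change −0.99), and 1 of the 4 endothelial markers, Pecam1 (−0.34). That is 16.7% and 25% called, beside 64.3% of all tested genes. No tested marker of pericytes and smooth muscle was called. From these lists, Cdh5, Tek, Emcn, Erbb3, Des and Myh11 were well above background on no array. The part of these cell types in the changes of Igfbp3, Igfbp5, Igf1 and Pik3cd was not tested.

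**Figure D5:**
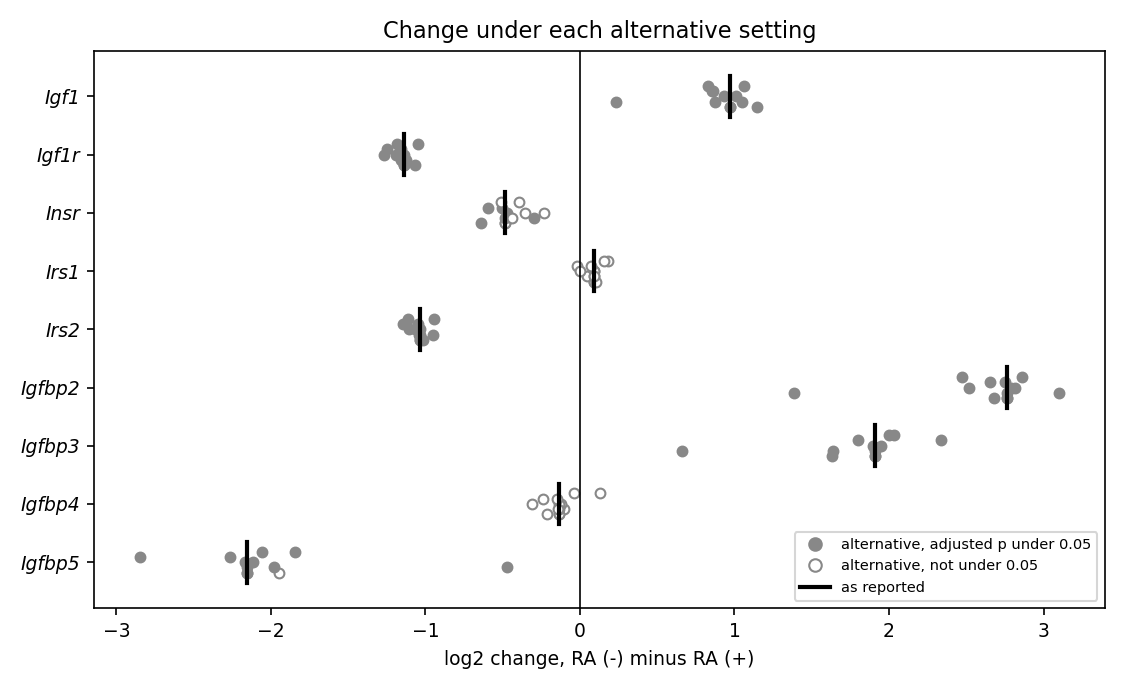
Change of each tested gene under the alternative settings, as log2 RA (-) minus RA (+). Filled points have an adjusted p under 0.05 and the bar is the value as reported. Igf1r and Irs2 lie between −1.27 and −0.94, while the dim probes of Igf1, Igfbp3 and Igfbp5 have a smaller change, 0.24, 0.66 and −0.47, under normexp with quantile normalization.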

How the data were processed

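RNA of 8 sphere cultures, 4 in RA (-) and 4 in RA (+) medium, was hybridised to 1-colour Agilent arrays. Per the file headers, all arrays lay on 1 slide read in 1 scan, so neither slide nor scan differed between the media. Per the file headers, the authors' intensities come from Agilent Feature Extraction 11.5.1.1 (design 028005, annotation on mm9). The software had subtracted background from the processed intensity and removed its spatial trend. The deposited flags for spots well above background and outlier spots are also the authors'. Per the labels, 40 or 200 ng of RNA was labelled, an amount not tied to single arrays, so whether it differed between media was not tested.

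Dropping outlier spots cost 64 probes. Levels are log2 intensities less the 75th percentile of their array, averaged over a probe's spots. The 75th percentile was 234 to 295 intensity units on RA (-) arrays and 228 to 302 on RA (+) arrays, and the local background around spots had medians of 26 to 29 units. The share of spots above background by the scanner's flag was 48.5% to 55.0% on RA (-) and 52.7% to 55.3% on RA (+) arrays. The number of arrays limits the precision.

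Probes were named through their accession and a RefSeq table of GRCm38.p6, for 27206 of them. Since the array annotation rests on another build, gene order and names alone were used from that table. A probe was tested if it passed that flag on 4 or more of 8 arrays, and the probe with the highest mean stood for a gene. The fit used limma 3.58.1 in R 4.3.3, two-sided, with the animal as a block, since the series' description states split cultures. Arrays of the same animal deviated together (correlations 0.52, 0.30, 0.19 and 0.33). The fit was tested on simulated data.

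The members and lists were chosen with earlier results of these data known. Named were all members, the 3 called genes of each list group with the largest change, Igf2, Igf2r, Igfbp6 and Grb10, and the genes nearest to a member; other genes, and the promoters shown, were picked after their values were seen. No protein sequences were used here.

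The authors also deposited log2 values for 55821 probes. Each column matched the scanner values of its array (lowest correlation 0.9999; over 99.5% of probes within 0.01 of a constant), after subtraction of each probe's mean. Centring and direction are thus settled and the exact scaling stays unknown. The column medians were −0.07, 0.01, 0.17 and 0.20 for RA (-) replicates 1 to 4, and −0.23, −0.22, 0.02 and −0.01 for RA (+) replicates 1 to 4. Alternatives were other scalings and filters, normexp on the median signal, the deposited log2 values, the mean of a gene's probes, no block, and leaving out each animal.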

Additional observations from a re-analysis of the deposited data

Results flagged for a closer look

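The level of Igf1r on RA (+) array 1 was 4.20, while the other RA (+) arrays lay between 3.79 and 3.85; without animal 1 the change was −1.18 and was called. The level of Socs1 on RA (-) array 3 was −0.22, against −0.04 to −0.00 on the other RA (-) arrays. The level of Igfbpl1 on RA (-) array 3 was −0.37, against 0.16 to 0.20 on the other RA (-) arrays. In each case 1 array stood far from the rest of its medium by Dixon's test. Of 56 groups of 4 arrays examined, 3 were marked, and chance marks about 1 in 20.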

How the results depend on the processing

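Of the member values recomputed under the alternatives, 106 stayed on their side of the threshold without a called reversal and 8 were no longer called, 7 of Insr and 1 of Igfbp5. The fit without the replicate block called 8004 genes (8703 with it), and Insr (−0.49, limma adjusted p = 0.0692), Ins2, Ptpn1 and Gsk3b lost their calls. Under spike-in scaling on 8 probes, 4181 genes were called in all, with 5 pathway genes higher and 12 lower; the fit then gave every gene the same standard error, 0.295. The 75th percentile of detected probes moved the median change of all genes to −0.04, against 0.07. Requiring all 8 arrays well above background left 6 members tested and 1 called higher. Leaving out 1 animal gave 7349 to 8217 calls over all genes, 3 members higher each time and 2 to 4 lower, with 8 to 9 pathway genes higher and 16 to 21 lower. Gsk3a, not called as reported, was called lower (−0.26) under normexp with quantile normalization. Signal over background limits Igf1, Igfbp3 and Igfbp5, whose probes were not well above background on every array, and Igfbp7 was not measurable here. The size of the Igfbp2 change also depended on the processing (1.38 under normexp with quantile normalization). That setting adds 50 units to every spot, which by arithmetic makes the changes of dim probes smaller. In it the bright probes of Igf1r and Irs2 had changes of −1.16 and −1.04. Other causes of differences between settings were not tested.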
